A study of Mus musculus with 242 samples.

Results

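The 10 genes described here, Hspa5, Hsp90b1, Hyou1, Pdia4, Dnajb9, Dnajc3, Sdf2l1, Creld2, Herpud1 and Xbp1, encode chaperones and helpers of the endoplasmic reticulum (ER) that the unfolded protein response is known to induce. They were chosen by name and are 10 of the 18193 genes measured in these mouse livers. For each gene the probe set (a group of short probes for 1 transcript on the array) with the highest mean signal over all 242 arrays was used. All 10 genes were measured on every array.

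The unfolded protein response is set off when unfolded proteins build up in the ER. The sensor Ern1 (IRE1) then splices the Xbp1 mRNA into a form that encodes an active transcription factor, Atf6 is cut to release another, and Eif2ak3 (PERK) slows translation and raises Atf4. Xbp1 and the cut form of Atf6 switch on genes for chaperones and for ER-associated degradation (ERAD), the disposal of proteins that fail to fold. Hepatocytes make most plasma proteins and so keep a large ER, which also houses many enzymes that process foreign chemicals. The Xbp1 value given here is 1 signal for the gene, and its splice forms were not measured apart.

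The livers came from female B6C3F1 mice, a hybrid strain, which were 5 weeks old when dosing began and were dosed with 1 of 26 chemicals or a vehicle for 13 weeks. Each array held the RNA of 1 mouse. There were 46 treated groups (183 arrays; 3 to 5 mice each) and 14 control groups (59 arrays; 3 to 5 mice each), and the question was what liver transcripts do at this time in mice given chemicals with known tumour outcomes. The arrays were sorted into 4 runs, called A to D here, by codes in the labels. Run A joins arrays of different run codes, and its fit held a block for the code. Each treated group was set against the control group of its own run and vehicle.

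In run A, benzene at 100 mg/kg, coumarin at 200 mg/kg and 1,2-dibromoethane at 62 mg/kg were given by gavage in corn oil (controls CCO2). 2-Chloromethylpyridine hydrochloride at 250 mg/kg and N-methylolacrylamide at 50 mg/kg were given in water (WCO1), and 4-nitroanthranilic acid at 10000 ppm, 2,2-bis(bromomethyl)-1,3-propanediol at 1250 ppm, malathion at 14800 ppm and diazinon at 200 ppm in chow (FCO2). In run B, tris(2,3-dibromopropyl)phosphate at 1000 ppm and 1-amino-2,4-dibromoanthraquinone at 20000 ppm were given in chow (FCO1). Tetrafluoroethylene at 1250 ppm and the compound labelled Tetrafluororethane at 50000 ppm were inhaled (ACO1), and trichlorofluoromethane at 3925 mg/kg and iodoform at 93 mg/kg were given in corn oil (CCO4). Run C held 2,3-benzofuran at 240 mg/kg in corn oil, and N-(1-naphthyl)ethylenediamine dihydrochloride at 2000 ppm, pentachloronitrobenzene at 8187 ppm and 1,5-naphthalenediamine at 2000 ppm in chow, each with its own controls. Run D held 5 dose series. Naphthalene at 0.5, 3, 10, 20 and 30 ppm (ACO5), methylene chloride at 100, 500, 2000, 3000 and 4000 ppm (ACO4) and propylene glycol mono-t-butyl ether (25, 75, 300, 800 and 1200 ppm; ACO3) were inhaled. 1,4-Dichlorobenzene at 100, 300, 400, 500 and 600 mg/kg (CCO5) and 1,2,3-trichloropropane at 2, 6, 20, 40 and 60 mg/kg (CCO6) were given in corn oil. Ethylene oxide at 100 ppm (ACO4) and vanadium pentoxide at 2 mg/m3 (ACO3) completed run D. All doses of a series share 1 control group, so their differences from it are not independent.

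The ER stress response element (ERSE), the site that the cut form of Atf6 binds together with the CCAAT-binding factor NF-Y, was searched in the RefSeq promoter windows (GRCm38.p6; 250 bases before to 50 after each start) of the 9 members that had one. The ERSE, CCAAT and CCACG with 9 bases of any kind between them on either strand, was in 39 of 32851 windows (0.119%), among them those of Hspa5, Hsp90b1, Dnajc3 and Creld2. The shorter ERSE-II, ATTGG and CCACG with 1 base between them on either strand, was in 12 windows (0.0365%), among them Herpud1. The bases before the start of these 5 genes are printed because they hold a whole element; 3 of the 8 calls below are of these genes, and the other 5 are of Sdf2l1 and Dnajb9. Capitals mark the ERSE or, in Herpud1, the ERSE-II, each read 5′ to 3′ on the gene's strand.
Hspa5, plus strand, chr2:34771940-34772089: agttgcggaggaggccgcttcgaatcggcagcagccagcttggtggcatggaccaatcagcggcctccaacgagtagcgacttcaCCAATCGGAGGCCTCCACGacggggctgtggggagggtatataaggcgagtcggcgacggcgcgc
Hsp90b1, minus strand, chr10:86705445-86705674: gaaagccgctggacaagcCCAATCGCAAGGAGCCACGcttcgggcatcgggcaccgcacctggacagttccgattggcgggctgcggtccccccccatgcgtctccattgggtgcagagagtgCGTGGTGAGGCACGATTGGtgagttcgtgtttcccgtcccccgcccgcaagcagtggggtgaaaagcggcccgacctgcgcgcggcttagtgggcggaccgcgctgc
Dnajc3, plus strand, chr14:118937782-118937931: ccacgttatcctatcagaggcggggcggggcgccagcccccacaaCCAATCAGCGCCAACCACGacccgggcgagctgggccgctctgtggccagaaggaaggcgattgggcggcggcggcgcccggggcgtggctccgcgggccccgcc
Creld2, plus strand, chr15:88819496-88819645: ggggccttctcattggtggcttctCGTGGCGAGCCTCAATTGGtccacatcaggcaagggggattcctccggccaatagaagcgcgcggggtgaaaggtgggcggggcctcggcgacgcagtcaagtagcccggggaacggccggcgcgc
Herpud1, plus strand, chr8:94386279-94386428: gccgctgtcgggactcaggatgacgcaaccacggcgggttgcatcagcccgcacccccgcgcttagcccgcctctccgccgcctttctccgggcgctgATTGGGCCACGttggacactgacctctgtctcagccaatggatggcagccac

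Counted from the base before the start as −1, the ERSE began at −65 in Hspa5, at −105 in Dnajc3, at −126 in Creld2 (opposite strand) and at −212 and −107 in Hsp90b1 (the −107 copy on the opposite strand). The ERSE-II of Herpud1 began at −52. The window of Herpud1 also held TGATGCAA, a core of sites for C/EBP and ATF factors that 0.895% of all windows held. The core TGACGTGG of the UPR element, a site of the spliced Xbp1 protein, was in 222 windows (0.676%) and in 0 of the 9 members. The ends of the ERSE alone were common: CCACG was in 32.8% of all windows and CCAAT in 37.4%, and each was in 8 of the 9 members, all but Xbp1. A match says only that these letters stand in the window.

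The trimmed mean signal was 500 on 240 arrays as deposited, and the other 2 were rescaled to it. An equal trimmed mean does not show that the arrays were alike. The median signal of an array still ran from 69.4 (in run B) to 136.7 (in run C). Run A had the lowest recorded RNA integrity numbers (4.7 to 7.8), against 8.2 to 8.9 for run B, 7.4 to 9.4 for run C and 7.1 to 9.3 for run D. The summed signal of the 8 measured hepatocyte markers was at least 233555 on every array, so the arrays carried liver RNA. Whole liver was measured, so fewer cells of a type and less RNA per cell cannot be told apart. The inhalation controls of run B (ACO1) stood apart from the other controls of that run in Hspa5, at 12.71, 12.38, 12.25 and 14.03, against 14.23, 14.62, 14.75 and 14.92 in the chow controls FCO1. The values of both inhalation groups of run B rest on these controls. All levels are log2(signal + 17.3), and a difference is treated minus control on that scale.

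Few member genes changed. Of 460 tests (10 genes in 46 treated groups), 8 (1.74%) passed limma's test at an adjusted p under 0.05 with at least a 1.5-fold difference, against 0.751% of the tests over all genes. The 4 rises (0.87%, against 0.331% of all tests) were Sdf2l1 in 3 groups and Dnajb9 in 1 group. The 4 falls (0.87%, against 0.42%) were Creld2, Hspa5 and Dnajb9 under 1,4-dichlorobenzene at 300 mg/kg and Herpud1 under 2,3-benzofuran. The other 41 groups had no member changed. The count was 2 when only the 2 groups compared were fitted, and 16 when all control groups of a run and vehicle were pooled.

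Below that threshold the members were more often lower than higher. The median difference over the 10 members was below 0 in 32 of the 46 groups, and below the median over all genes in 31. At least 9 of the 10 genes were lower in 14 groups and higher in 2. Of the 460 tests, 86 (18.7%) had an unadjusted p under 0.05, against 10.4% over all genes. Every treated array lay below every control array in 37 tests (8.04%, against 3.04% over all genes) and above in 14 (3.04%, against 2.7%). The groups share controls within a series and many members varied together between mice, so these counts are not of independent comparisons. All genes also include dim ones, while the mean levels of the members lay at the 79.5th to 98.7th percentile. The lowest group medians were −0.73 under 1,4-dichlorobenzene at 300 mg/kg and −0.54 at 500 mg/kg, −0.48 under coumarin, and −0.46 under both iodoform and the highest dose (1200 ppm) of propylene glycol mono-t-butyl ether. The highest were 0.27 under 2,3-benzofuran, where the median over all genes was −0.12, and 0.23 under malathion.

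**Figure D1:**
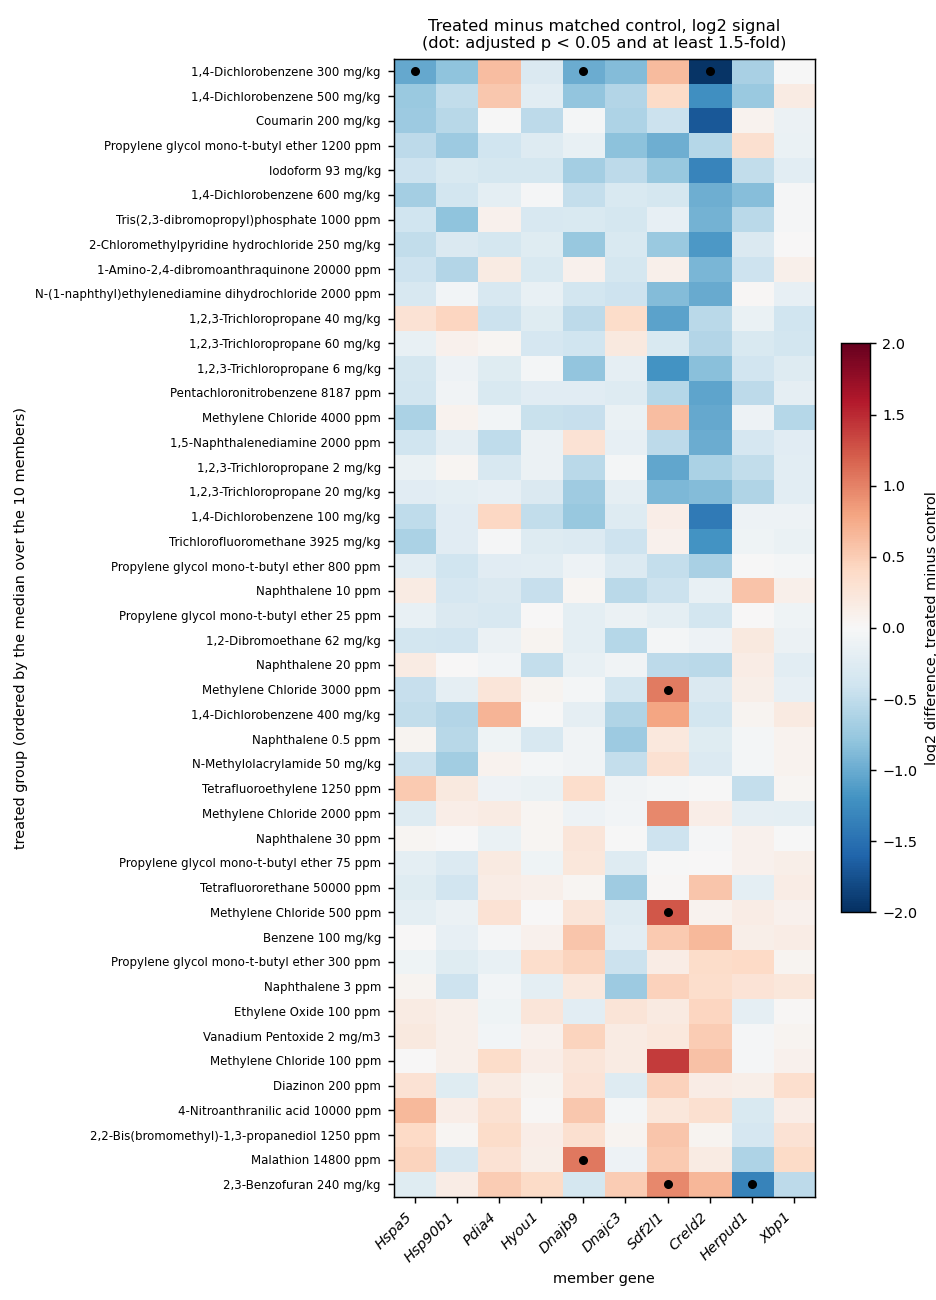
Difference in log2 signal (treated minus matched control) of the 10 genes (columns) in the 46 treated groups (lines of the grid), ordered by the group's median over the genes. Dots mark the 8 differences that passed limma's test, and the 2 columns with most strong colour are Creld2 and Sdf2l1, whose differences ran over −1.96 to 0.66 and −1.20 to 1.40.

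Hspa5 (BiP) is the main Hsp70 chaperone of the ER and holds the 3 stress sensors inactive. Its difference was lower in 31 groups and higher in 15, with a median of −0.23 and a range of −1.03 (1,4-dichlorobenzene at 300 mg/kg) to 0.65 (4-nitroanthranilic acid). Its group means lay between 12.61 and 14.94 in treated groups and between 12.84 and 15.01 in control groups. The range over controls was thus about as wide as that over treated groups. Hsp90b1 (GRP94), the Hsp90 of the ER, was lower in 32 groups, with a median of −0.22 and a range of −0.80 to 0.44. Hyou1 (GRP170), which exchanges the nucleotide of Hspa5, was lower in 29 groups, with a range of −0.52 under coumarin to 0.38 under 2,3-benzofuran. No difference of Hyou1 reached 1.5-fold. Pdia4 (ERp72), a disulfide isomerase, was lower in 27 groups and higher in 19, with a range of −0.51 under 1,5-naphthalenediamine to 0.68 under 1,4-dichlorobenzene at 400 mg/kg.

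The J-domain proteins and their partner differed among themselves. Dnajb9 (ERdj4), which guides Hspa5 to misfolded proteins and to Ern1, was lower in 29 groups, with a range of −1.0 to 1.06. Dnajc3 (p58IPK), which delivers unfolded proteins to Hspa5, was lower in 39 of the 46 groups, with a median of −0.26 and a range of −0.86 to 0.51. It passed the test in 0 groups, and 8 of its falls had an unadjusted p under 0.05. Sdf2l1, which works with ER J-domain proteins to keep proteins from clumping, was higher in 24 groups and lower in 22, with a range of −1.20 to 1.40. At least 1.5-fold differences of Sdf2l1 were seen in 16 groups, of which 3 passed the test.

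Creld2, a secreted ER protein with disulfide isomerase activity, had the widest spread. Its difference was lower in 31 groups, with a median of −0.37 and a range of −1.96 to 0.66, and 20 differences were past 1.5-fold. An unadjusted p under 0.05 was seen for 16 of its falls and 0 of its rises. Herpud1, a membrane protein of the ERAD complex, ranged over −1.33 (2,3-benzofuran) to 0.58 (naphthalene at 10 ppm). Xbp1, the transcription factor, ranged over −0.58 to 0.38, with 0 differences past 1.5-fold. The SD between mice of a group was highest for Creld2 (0.63), Sdf2l1 (0.57) and Herpud1 (0.51), and lowest for Hyou1 (0.27) and Xbp1 (0.22). The median SD of 3723 bright genes was 0.245. All members but Hyou1 (61.2 by percentile) and Xbp1 (38.7) lay at percentile 85.5 or above among these. A given difference of a member other than those stands on a noisier gene than most, above all in Creld2 (99.2) and Sdf2l1 (98.4).

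Under 1,4-dichlorobenzene at 300 mg/kg, Creld2, Hspa5 and Dnajb9 fell and no member rose past the threshold. This is 3 of 10 members, against 2% of all genes changed and 1.26% that fell in this comparison. Creld2 stood at 10.25, 10.05, 9.96 and 9.83 in the dosed mice, against 12.40, 12.11, 12.31, 11.32 and 11.77 in the controls CCO5. All 4 dosed mice were more than 1 unit below the lowest control. The difference was −1.96 (SE 0.39), a 3.89-fold lower level (limma, adjusted p = 7.68e-04).

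Hspa5 stood at 13.95, 13.96, 13.57 and 13.41 in the dosed mice, against 15.30, 15.07, 14.60, 14.25 and 14.52 in CCO5. The groups did not overlap, and the level was 2.04-fold lower (difference −1.03, SE 0.21; limma, adjusted p = 0.00137). Dnajb9 stood at 13.06, 12.54, 12.33 and 12.33, against 13.82, 13.85, 13.38, 13.54 and 13.23 in CCO5. The highest dosed mouse lay just under the lowest control. Dnajb9 was 2-fold lower (−1.0, SE 0.27; limma, adjusted p = 0.0223), and this call was lost without either of 2 dosed mice (replicate 3, adjusted p = 0.117; replicate 4, 0.108) or either of 2 controls (replicate 1, 0.0577; replicate 2, 0.0574). The ratio of 3′ to 5′ Gapdh signal, a sign of RNA quality, was 0.694 to 0.716 in the dosed mice and 0.755 to 0.919 in CCO5, without overlap. With that ratio as a covariate Dnajb9 did not pass (adjusted p = 0.0595), while Creld2 and Hspa5 did.

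The other members at this dose did not pass the test. Hsp90b1 stood at 13.66, 13.19, 12.56 and 12.70 in the dosed mice, against 13.66, 14.13, 13.64, 13.72 and 14.01 in CCO5 (−0.80; limma, adjusted p = 0.0652). Dnajc3 stood at 12.03, 11.61, 10.84 and 10.85, against 12.20, 12.26, 12.40, 11.76 and 12.35 (−0.86; limma, adjusted p = 0.0878). In both genes dosed replicate 1 lay within the controls, and without it Hsp90b1 (−1.02; adjusted p = 0.0182) and Dnajc3 (−1.09; adjusted p = 0.0275) passed. Pdia4 ran the other way, at 10.79, 10.84, 10.72 and 10.95 in the dosed mice, against 10.29, 10.37, 10.02, 10.06 and 10.26 in CCO5. Its groups did not overlap, but the difference of 0.62 missed the threshold (limma, adjusted p = 0.101). Over all genes, 2.49% had every dosed array above and 3.59% every dosed array below the controls. Sdf2l1 (0.64; adjusted p = 0.275), Herpud1 (−0.65; 0.373), Hyou1 (−0.28; 0.337) and Xbp1 (−0.00; 0.997) did not pass limma's test.

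**Figure D2:**
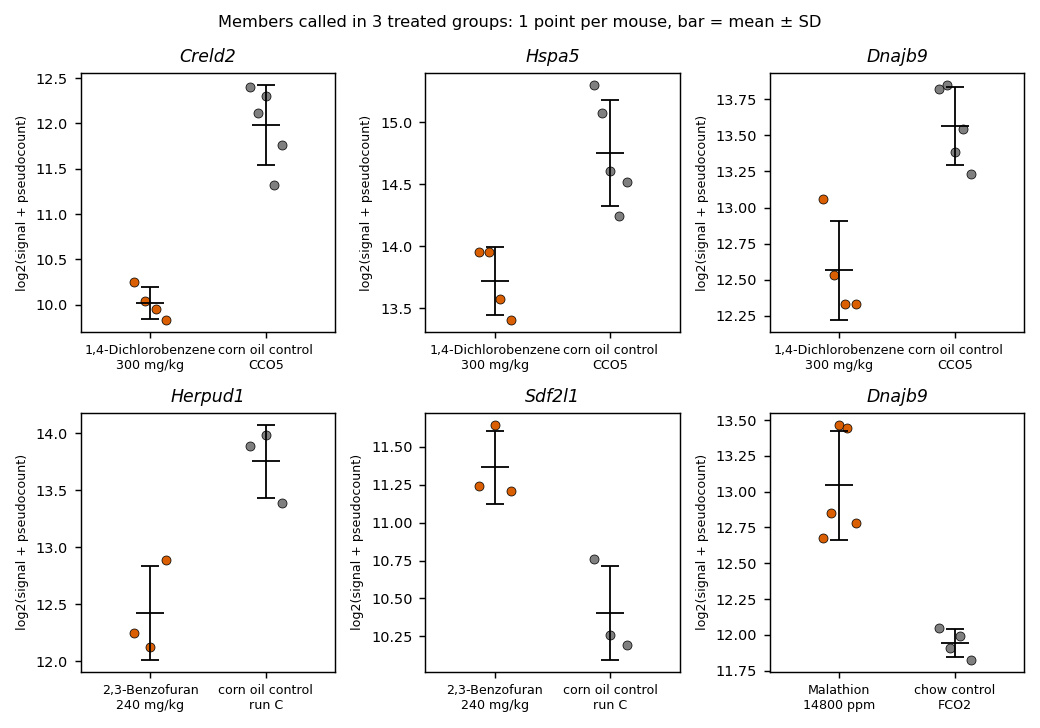
Log2 signal of the members that changed in the treated groups against one control group: Creld2, Hspa5 and Dnajb9 under 1,4-dichlorobenzene at 300 mg/kg, Herpud1 and Sdf2l1 under 2,3-benzofuran, and Dnajb9 under malathion, each left of its controls. Points are mice and bars mark the mean ± SD; in every panel the treated mice (3 to 5) and the control mice (3 to 5) do not overlap, as in Creld2, where treated mice reach 10.25 and the lowest control is 11.32.

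Some other genes of the same system fell with them at 300 mg/kg. Of 22 other ER folding genes, 0 rose and 4 fell. The median over that list was −0.05, against −0.06 over all genes, so the list as a whole was not lower. These were Hspa13 (−1.38), an ER-associated Hsp70, Manf (−0.93), which binds Hspa5, and the thiol oxidases Ero1b (−0.92) and Ero1a (−0.85). Of 14 ERAD genes, 0 rose and 4 fell, with a median of −0.22. These were the ubiquitin ligase Syvn1 (−1.24), its partner Sel1l (−0.82), the mannosidase Edem3 (−1.04) and Ubxn4 (−0.86). None of 7 sensor genes, 13 translocation genes or 11 genes of the Eif2ak3 and Atf4 arm changed in limma's test. Among 10 cytosolic heat shock genes 1 fell (Hsph1, −1.32), and among 8 fasting genes 2 fell (Pdk4, −1.93; Fgf21, −1.55), while 1 of 8 fed-state genes rose (Me1, 0.80). The summed signal of plasma cell markers, cells rich in ER, was 1261 to 3017 in the dosed mice and 757 to 1478 in CCO5, but 0 of the 5 measured markers changed and their median difference was −0.36. Their part in the result was not tested.

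For Creld2 and Hspa5 the 300 mg/kg group was the extreme of its series rather than a step in it. Creld2 averaged 10.57 ± 0.41 at 100, 10.02 ± 0.18 at 300, 11.62 ± 0.66 at 400, 10.75 ± 0.45 at 500 and 11.00 ± 0.42 at 600 mg/kg (SD, n = 4 each), with 11.98 in CCO5 (n = 5). Every dose averaged below the controls, and the smallest difference was at 400 mg/kg (−0.36; limma, adjusted p = 0.773). The differences at 100 (−1.41; adjusted p = 0.130), 500 (−1.23; 0.0999) and 600 mg/kg (−0.98; 0.332) did not pass limma's test. Hspa5 averaged 14.25 ± 0.27, 13.72 ± 0.28, 14.26 ± 0.44, 14.00 ± 0.41 and 14.07 ± 0.33 over the rising doses, and its lowest mean was again at 300 mg/kg. At 500 mg/kg its difference was −0.75 (limma, adjusted p = 0.0526), which passed in 3 of 9 alternative fits. With the corn oil controls of run D pooled, the calls included Creld2 lower at 100 mg/kg (−1.40; limma, adjusted p = 0.0319). They also included Pdia4 higher at 300 mg/kg (0.69; 0.0427). No member had a dose trend that passed in limma's test (a line through the controls and the 5 doses at equal steps), against 1.12% of all genes. The nearest was Hspa5 (a fitted change of −0.51 from controls to highest dose; adjusted p = 0.137). Of the folding and ERAD lists, Syvn1 (−1.31) and Dnajb11 (−0.72) also fell at 100 mg/kg, where 0.0385% of all genes fell. At 500 mg/kg Syvn1 (−1.17), Sel1l (−0.61), Ero1b (−0.68) and Dnajb11 (−0.59) fell, against 0.242% of all genes. No gene of these lists was called at 400 or 600 mg/kg.

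2,3-Benzofuran, a fused ring ether, split the members. Herpud1 fell and Sdf2l1 rose, 2 of 10 members, against 3.28% of all genes changed (1.35% rose and 1.92% fell). Herpud1 stood at 12.25, 12.12 and 12.89 in the dosed mice, against 13.89, 13.98 and 13.39 in the corn oil controls of run C. The groups did not overlap. Herpud1 was 2.51-fold lower (−1.33, SE 0.24; limma, adjusted p = 0.00897), the lowest group mean of this gene in the series.

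Sdf2l1 stood at 11.24, 11.64 and 11.21 in the dosed mice, against 10.76, 10.26 and 10.20 in the controls. All 3 dosed mice were above the controls, and the level was 1.95-fold higher (0.96, SE 0.21; limma, adjusted p = 0.0208). The call was lost without dosed replicate 2 (adjusted p = 0.0859), control replicate 2 (0.0824) or control replicate 3 (0.0829). Xbp1 stood at 13.32, 13.34 and 13.21, against 13.87, 13.83 and 13.75 in the controls. It was lower in every dosed mouse with an adjusted p of 0.0163 in limma's test, but the 1.44-fold difference (−0.52) was under the fold threshold. With 3 mice against 3, 11.4% of all genes had every dosed array above and 17.3% every dosed array below the controls.

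Of the other members, 5 were higher without passing: Creld2 0.66 (limma, adjusted p = 0.385), Dnajc3 0.51 (0.126), Pdia4 0.50 (0.074), Hyou1 0.38 and Hsp90b1 0.15. Hspa5 (−0.25) and Dnajb9 (−0.35) were lower. In the companion lists, 4 of 22 other ER folding genes rose and 0 fell, with a median of 0.36 against −0.12 over all genes. They were the folding sensor Uggt1 (0.70), the disulfide isomerase family members Txndc5 (0.76) and Erp29 (0.88), and Fkbp11 (1.25), a prolyl isomerase. Of 14 ERAD genes 3 rose and 0 fell (median 0.29): Derl3 (3.63), part of the export channel, Edem2 (0.77) and the ATPase Vcp (0.67). Of 13 translocation genes 2 rose (Ssr3, 0.71; Ssr1, 0.66), and 0 of 7 sensors changed.

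Of 11 genes of the Eif2ak3 and Atf4 arm 2 rose and 1 fell under 2,3-benzofuran. The amino acid synthesis enzymes Psat1 (3.60) and Asns (3.53) rose, and Chac1 (−1.57), which breaks down glutathione, fell. Hspb1 (3.27) was the 1 of 10 cytosolic heat shock genes that rose. The summed signal of some marker lists of other cells was lower beside these. That of pancreas acinar markers was 1352 to 1679 in the dosed mice and 3974 to 4959 in the controls. The sum of Kupffer cell markers was 10502 to 13186 and 15315 to 19420, and that of plasma cell markers 612 to 849 and 897 to 1180. Of these lists 1 of 9 acinar genes (Cela1, −1.79), 1 of 7 Kupffer cell genes (Csf1r, −0.65) and 0 of 5 plasma cell genes fell, and 0 rose. A sum rests mostly on its brightest genes, and most genes of each list were not called. The part of these lists in the result was not tested.

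Under malathion, an organophosphate insecticide, Dnajb9 alone among the members rose (1 of 10, against 4.37% of all genes changed and 2.36% that rose). Dnajb9 stood at 12.67, 12.85, 13.47, 13.45 and 12.78 in the dosed mice, against 12.04, 11.90, 11.99 and 11.82 in the chow controls FCO2. The groups did not overlap (5.34% of all genes had every dosed array above), and the controls were the lowest of all 14 control groups for this gene. The difference was 1.06 (SE 0.29; 2.09-fold; limma, adjusted p = 0.0198). It was lost without control replicate 2 (adjusted p = 0.0806) or 4 (0.0533), or without dosed replicate 3 (0.0623) or 4 (0.0591). Dosed replicates 3, 4 and 5 and control replicate 2 carried a different run code from the other arrays, for which the fit held a block. The RNA integrity number was 4.7 to 6.5 in the 4 malathion arrays with a record and 6.7 to 7.2 in FCO2. Without the 2 arrays under 5 the difference was 1.05 (adjusted p = 0.0611), an alternative chosen after the values were seen.

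Herpud1, in contrast, stood at 13.32, 13.28, 13.44, 14.16 and 13.98 under malathion, against 14.27, 13.93, 14.64 and 14.32 in FCO2 (−0.62; limma, adjusted p = 0.319). The groups overlapped in 2 dosed mice. Sdf2l1 was scattered, at 10.06, 9.21, 10.54, 11.20 and 8.26 in the dosed mice, against 8.88, 10.03, 9.26 and 9.62 in FCO2 (0.53; adjusted p = 0.692). Of 14 ERAD genes 3 rose and 0 fell (median 0.19): Selenos (1.16), a selenoprotein of the retrotranslocation complex, Syvn1 (0.85) and Vcp (0.62). The stress sensor Eif2ak3 (0.92) was the 1 of 7 sensors that rose, and Txndc11 (0.64) the 1 of 22 folding genes. The summed signal of pancreas acinar markers was 1828 to 2494 in the dosed mice and 4404 to 5134 in FCO2, but the list went both ways. Of its 9 measured genes 1 rose (Pnliprp1, 3.04), 1 fell (Cela1, −1.57) and the median was −0.09. The sum of plasma cell markers was 311 to 601 in the dosed mice and 659 to 1082 in FCO2, with 0 of 5 changed. The part of either list was not tested.

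Under methylene chloride Sdf2l1 rose at 2 doses, and Creld2 and Hspa5 had falling dose trends. Against its control group ACO4, Sdf2l1 rose at 500 ppm (1 of 10 members, against 0.726% of all genes changed) and at 3000 ppm (1 of 10, against 3.05%). It stood at 10.43, 11.28, 10.53 and 10.43 at 500 ppm and at 10.39, 10.68, 10.30 and 10.47 at 3000 ppm, against 9.16, 9.34, 9.32, 10.06 and 9.24 in ACO4. Neither dosed group overlapped the controls (3.02% and 3.24% of all genes had every dosed array above), although control replicate 4 came close. The difference was 1.24 (SE 0.32; 2.37-fold; limma, adjusted p = 0.0322) at 500 ppm and 1.04 (SE 0.32; 2.05-fold; adjusted p = 0.0357) at 3000 ppm. The largest difference was at the lowest dose, 100 ppm, where the mice stood at 11.08, 11.22, 10.18 and 10.84 (1.40; adjusted p = 0.102), and it did not pass over all genes. Nor did those at 2000 ppm, with 10.41, 10.43, 10.31 and 10.38 (0.96; 0.115), and at 4000 ppm, with 10.11, 9.80, 10.19 and 10.08 (0.62; 0.303). All 5 doses thus averaged above ACO4, with the smallest difference at the highest dose.

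These rises depended on the control group. The other inhalation controls of the same run stood at 10.56, 10.60, 10.52, 11.08 and 10.29 (ACO3) and at 9.32, 9.74, 10.06, 10.58 and 9.34 (ACO5). ACO3 did not overlap ACO4 at all and covered most of the dosed mice. Against ACO3 the difference of Sdf2l1 was 0.06 (limma, adjusted p = 0.947) at 500 ppm and −0.15 (0.823) at 3000 ppm, and against ACO5 it was 0.86 (0.255) and 0.65 (0.284). Against the pooled air controls of run D it was 0.72 (0.148) and 0.51 (0.263). The comparisons with ACO3 and ACO5 one at a time were chosen after the values were seen. Between ACO3 and ACO4 themselves the difference was 1.19 (95% interval 0.59 to 1.79), which did not pass over all genes (limma, adjusted p = 0.458; 0% of all genes called). The calls against ACO4 were also lost without 1 library: at 500 ppm without ACO4 replicate 1 (adjusted p = 0.0659), 2 (0.0648) or 5 (0.0811), or without dosed replicate 2 (0.173) or 3 (0.0537), and at 3000 ppm without any single array other than ACO4 replicate 4 (0.0508 to 0.0866).

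Creld2 and Hspa5 had falling trends over ACO4 and the methylene chloride doses. Of 10 members 2 had a trend that passed, against 3.5% of all genes (2.07% that fell). The change from controls to the highest dose was −1.09 (SE 0.34; limma, adjusted p = 0.0275) for Creld2 and −0.67 (SE 0.18; adjusted p = 0.0112) for Hspa5. The fall of Creld2 was uneven. Against the pooled air controls of run D it differed by 0.43, −0.08, −0.02, −0.43 and −1.18 over the rising doses. Hspa5 differed by 0.11, −0.10, −0.16, −0.36 and −0.54. Trends with ACO3 or ACO5 as the controls were not fitted. The Creld2 trend was lost in 7 of 25 fits that left out 1 array (ACO4 replicates 3 and 4, 100 ppm replicates 2 and 4, 3000 ppm replicate 1, and 4000 ppm replicates 1 and 4; adjusted p up to 0.083). The Hspa5 trend was lost without 4000 ppm replicate 1 (limma, adjusted p = 0.0508). Xbp1 was lower too but was not called. With 1 array left out in turn its fitted change was −0.60 to −0.50 (limma, adjusted p 9.7e-05 to 0.00228). In 22 of those 25 fits the change stayed under the fold threshold.

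At 4000 ppm, Creld2 stood at 10.16, 10.33, 11.08 and 10.00, against 10.80, 11.45, 11.78, 11.73 and 11.33 in ACO4 (−1.03; limma, adjusted p = 0.124). Only dosed replicate 3 reached into the controls. Hspa5 stood at 13.74, 14.14, 14.53 and 13.88, against 14.56, 14.81, 14.59, 14.72 and 14.88 in ACO4 (−0.64; adjusted p = 0.0653). Every dosed mouse was below every control, as for 3.68% of all genes. Xbp1 stood at 13.73, 13.30, 13.51 and 13.68, against 13.97, 13.88, 14.43, 14.26 and 14.10 in ACO4. It was lower in every dosed mouse (−0.58; limma, adjusted p = 0.00181), and at 1.49-fold was just under the fold threshold. At 4000 ppm, 0 of 10 members were called against ACO4, with 2.92% of all genes. Here too the calls depended on the control group. Xbp1 passed both thresholds against ACO3 (−0.60; limma, adjusted p = 0.00129), ACO5 (−0.64; 3.37e-04) and the pooled air controls (−0.61; 2.41e-05). Creld2 passed against ACO3 (−1.47; 0.0134) and the pooled controls (−1.18; 0.0126) but not against ACO5 (−1.02; 0.122). Hspa5 passed against ACO3 (−0.68; 0.0485) but not against ACO5 (−0.31; 0.500) or the pooled controls (−0.54; 0.0504), and Hyou1 passed against ACO5 alone (−0.60; 0.00871).

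The other lists moved in part the other way over the methylene chloride series. In the dose trend, 1 of 22 ER folding genes rose (Fkbp11, 1.44) and 0 fell. Of 11 genes of the Eif2ak3 and Atf4 arm 2 rose (Asns, 2.78; Psat1, 2.65) and 0 fell, while 3 of 8 fasting genes fell. Genes of the daily clock moved as well, with 7 of 14 up and 3 down in the trend. At 4000 ppm the summed signal of the clock list was 13200 to 26751 in the dosed mice and 6203 to 9304 in ACO4, and that of endothelial markers was 6112 to 7111 and 8027 to 8980. Their part in the members' trend was not tested.

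**Figure D3:**
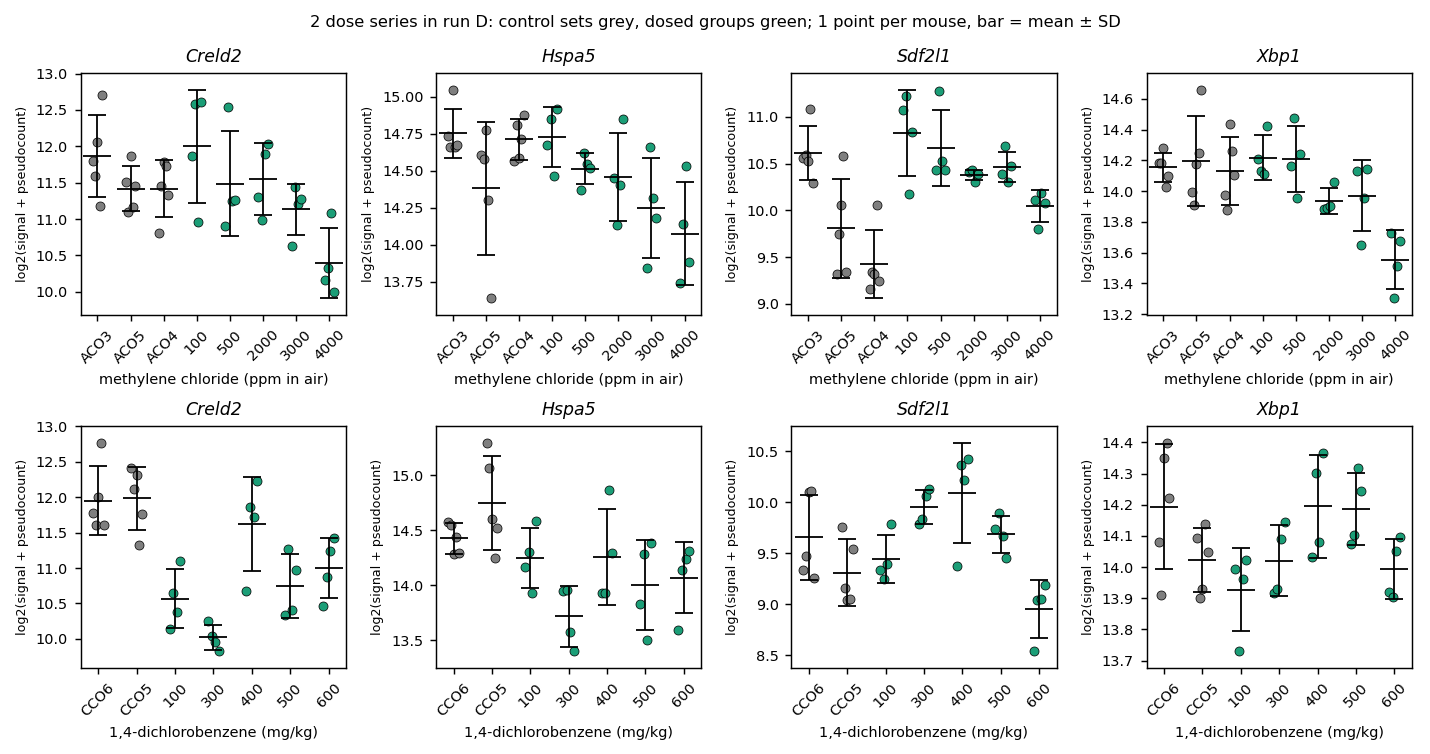
Log2 signal of Creld2, Hspa5, Sdf2l1 and Xbp1 in the methylene chloride series (ppm) and the 1,4-dichlorobenzene series (mg/kg), with the control groups of the same run and vehicle at the left and doses rising to the right. Points are mice and bars mark the mean ± SD. Sdf2l1 is low in ACO4 (mean 9.42) but not in ACO3 (10.61), and Creld2 is lowest at 300 mg/kg of 1,4-dichlorobenzene (10.02).

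In the other 3 dose series no member passed, in any group or trend (trends of 0.577% of all genes passed for 1,2,3-trichloropropane, 0.0934% for naphthalene and 0.253% for propylene glycol mono-t-butyl ether). 1,2,3-Trichloropropane came nearest, through Sdf2l1. Its means were 8.61, 8.46, 8.75, 8.58 and 9.35 at 2, 6, 20, 40 and 60 mg/kg, with 9.66 in CCO6. At 6 mg/kg the mice stood at 7.97, 9.08, 8.78 and 8.00, against 9.34, 9.47, 10.10, 10.11 and 9.26 in CCO6 (−1.20; limma, adjusted p = 0.0721). At 40 mg/kg they stood at 8.19, 9.0, 8.07 and 9.07 (−1.07; adjusted p = 0.0501). Both dosed groups lay wholly below the controls (as did 1.67% and 4.85% of all genes), and the highest dose was the nearest to them. In the naphthalene series the lowest adjusted p was 0.109 (Hyou1 at 10 ppm, −0.46). In the propylene glycol mono-t-butyl ether series it was 0.224 (Sdf2l1 at 1200 ppm, −0.97). The median trend over the 10 members was −0.34 there, −0.32 for methylene chloride, −0.28 for 1,4-dichlorobenzene, −0.14 for 1,2,3-trichloropropane and 0.01 for naphthalene.

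Coumarin had a large difference without a call (0 of 10 members, against 0.357% of all genes). Creld2 stood at 9.65, 9.66, 10.05 and 10.76 in the dosed mice, against 11.14, 11.92, 13.79 and 10.05 in CCO2. The controls spanned more than 3 units and overlapped the dosed mice. The difference was −1.70 (SE 0.50; limma, adjusted p = 0.163). Hspa5 was lower in every coumarin mouse than in any control, with a difference of −0.73 (adjusted p = 0.331), an order seen in 1.62% of all genes. Creld2 was also low under iodoform (−1.33; adjusted p = 0.708).

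Related compounds could be set against each other at equal doses in 2 pairs, each tested over all genes. 1,4-Dichlorobenzene is benzene with chlorine at opposite ring positions. At 100 mg/kg the difference under 1,4-dichlorobenzene less the difference under benzene, each against its own run's corn oil controls, passed for 0 of 10 members and 0% of all genes. The difference was −2.07 for Creld2 (95% interval −3.29 to −0.84; limma, adjusted p = 0.351) and −1.30 for Dnajb9 (−2.09 to −0.50; 0.352). Those intervals did not hold 0, but the p-values did not pass over all genes, and the 2 compounds were measured in different runs. 1,5-Naphthalenediamine carries an amino group on each naphthalene ring, and N-(1-naphthyl)ethylenediamine carries an ethylenediamine chain on 1 ring. At 2000 ppm in chow their difference (the diamine minus the other) passed for 0 of 10 members, against 0.923% of all genes. It was 0.65 for Dnajb9 (95% interval −0.15 to 1.46; limma, adjusted p = 0.492), 0.34 for Sdf2l1 (−0.10 to 0.79), 0.02 for Creld2 (−0.84 to 0.88) and −0.08 for Hspa5 (−0.53 to 0.37). These intervals still allow differences of 1.5-fold in Creld2, Dnajb9 and Sdf2l1. The 2 fluorinated gases were given at different doses and are not compared: Hspa5 differed from ACO1 by 0.53 under tetrafluoroethylene at 1250 ppm and by −0.24 under Tetrafluororethane at 50000 ppm, and neither passed.

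Untreated livers of run B differed in these genes, as in many others. Between inhalation and chow controls of run B (ACO1 minus FCO1), Hspa5 (−1.79; limma, adjusted p = 0.00553), Hsp90b1 (−1.55; 0.00336) and Creld2 (−1.61; 0.0132) fell past the threshold. That is 3 of 10 members down, against 12.9% of all genes called (8.04% fell and 4.88% rose). Against the corn oil controls of run B (ACO1 minus CCO4), Hspa5 (−1.73; limma, adjusted p = 0.00159), Hsp90b1 (−1.48; 8.63e-04) and Dnajc3 (−1.56; 0.00179) fell and Sdf2l1 (1.31; 0.0191) rose. That is 3 of 10 members down and 1 up, against 28.5% of all genes called (15.8% fell and 12.8% rose). The difference was thus broad, and whether it was larger in the members than in other genes was not tested. Between FCO1 and CCO4 0 members and 0% of all genes were called. Hspa5 stood at 13.98, 14.63, 14.73 and 14.94 in CCO4, close to FCO1 and above 3 of the 4 ACO1 mice. In ACO1, Hspa5, Hsp90b1, Dnajc3 and Creld2 had their lowest mean of the 14 control groups, and Sdf2l1, Herpud1 and Xbp1 their highest. These comparisons were chosen after the values were seen, and vehicle and group cannot be told apart in them.

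**Figure D4:**
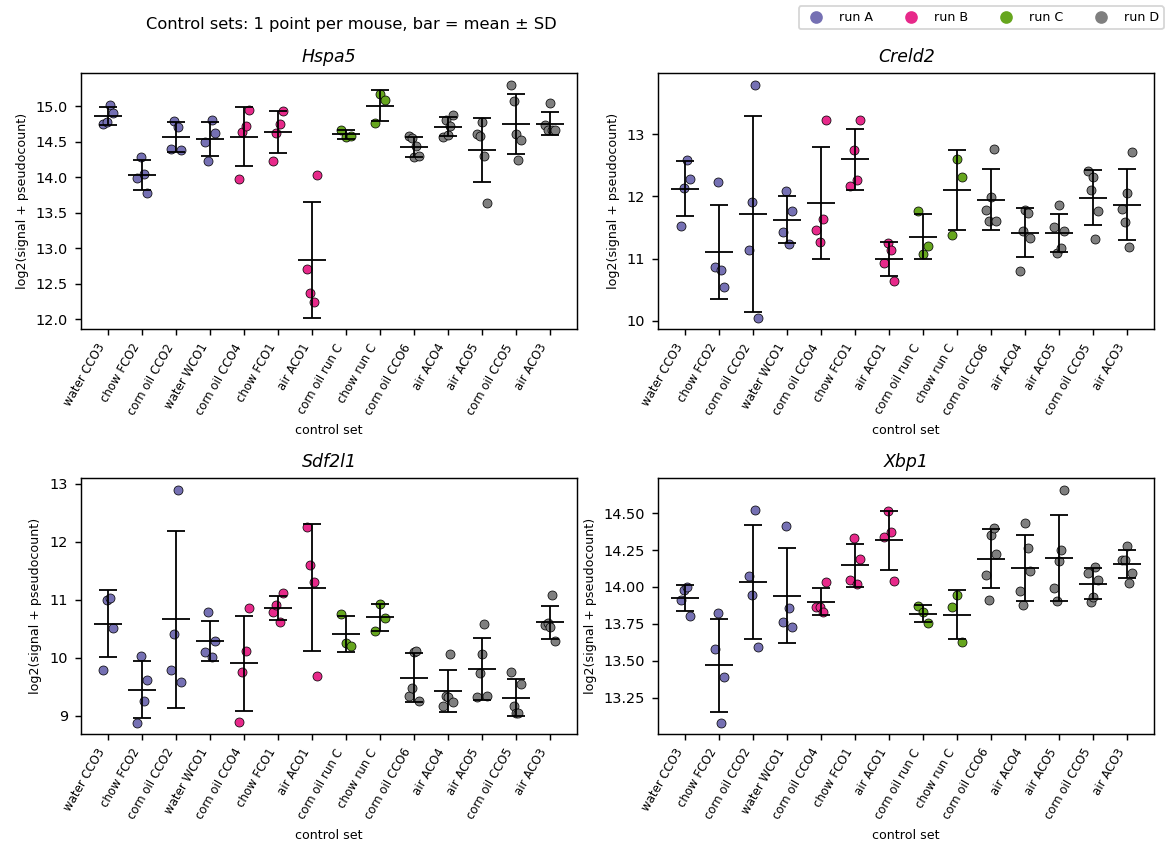
Log2 signal of Hspa5, Creld2, Sdf2l1 and Xbp1 in the 14 control groups, coloured by run. Points are mice and bars mark the mean ± SD. The inhalation controls of run B (ACO1) are lowest in Hspa5 (mean 12.84) and highest in Sdf2l1 (mean 11.21).

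Within groups, mice that were high in 1 member tended to be high in others. Over the deviations of all 242 mice from their own group's mean, 26 of 45 pairs of members correlated positively, 6 negatively and 13 did neither (permutation within groups, adjusted over the 45 pairs). The median r was 0.232, against −0.009 for the 181830 pairs of a member with another gene. Of those pairs, 13.4% were at or above the lowest r counted as positive (0.185) and 13.8% at or below the highest counted as negative (−0.194). Hsp90b1 and Dnajc3 moved closest together (Pearson r = 0.843, Spearman rho = 0.799; permutation, adjusted p = 2.4e-05, the smallest that 100000 permutations could give). The r was 0.749, 0.835, 0.688 and 0.885 in runs A, B, C and D, and 0.828 without the 2 mice farthest from the median. The next were Creld2 with Hyou1 (r = 0.627), Hspa5 with Dnajc3 (0.625), Pdia4 with Sdf2l1 (0.618), Sdf2l1 with Hyou1 (0.613) and Sdf2l1 with Creld2 (0.602). Such values were common for some members: Hsp90b1 ranked 1st of all genes by its r with Dnajc3, but Hspa5 ranked 617th. Pdia4 with Sdf2l1 fell to 0.235 when each gene was the mean of all its probe sets. Xbp1 ran against Hsp90b1 (r = −0.397), at −0.350, −0.444 and −0.475 in runs A, B and D but 0.452 in run C. All pairs share arrays and their scaling.

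**Figure D5:**
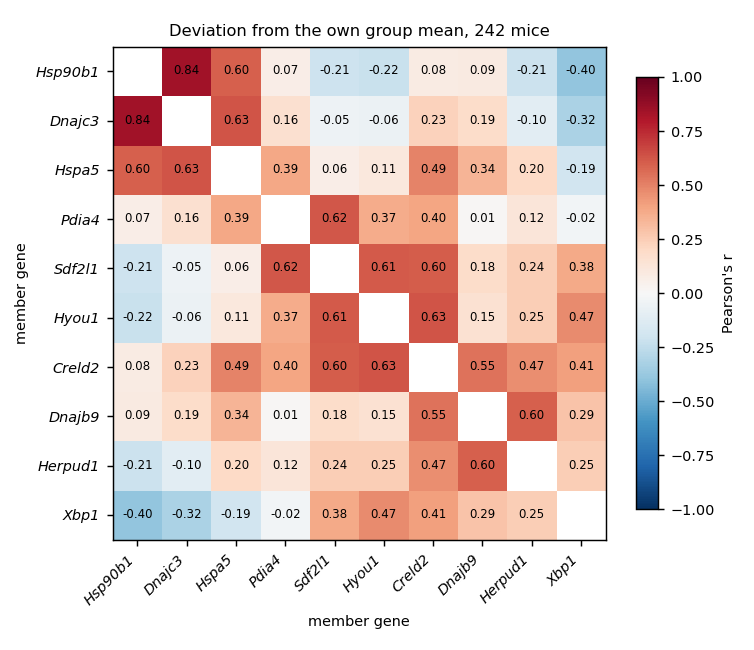
Pearson r of within-group deviations between each pair of the 10 genes over 242 mice. The darkest pair is Hsp90b1 with Dnajc3 (0.843), and Xbp1 is negative with Hsp90b1 (−0.397) and Dnajc3 (−0.320).

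The genes outside the 10 whose deviations were most like theirs, by mean r with the members over the 242 mice, were Manf (0.424), Dnajb11 (0.411), Syvn1 (0.376), Ero1b (0.347) and Sel1l (0.346). The median over the other 18183 genes was −0.007, and 5% of them were above 0.085. Manf is a secreted ER stress factor, Dnajb11 (ERdj3) a J-domain partner of Hspa5, Syvn1 and Sel1l the core of the ERAD ligase, and Ero1b a thiol oxidase. Manf correlated with Creld2 at r = 0.836. The ERSE stood in the promoter windows of Syvn1 (first base at −44) and Ero1b (−201) and the ERSE-II in that of Dnajb11 (first base at 7, after the start), while Sel1l had neither.

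Other probe sets of the same genes mostly agreed in direction over the 46 groups. The second of Herpud1 had the same sign in 40 groups (r = 0.955), 1 of Xbp1 in 44 (r = 0.934), 1 of Hspa5 in 41 (r = 0.871) and that of Hsp90b1 in 41 (r = 0.641). Agreement was weaker for Hyou1, whose other probe sets had the same sign in 33 (r = 0.382) and 29 groups (r = 0.156). Their mean signals were 972 and 176, against 3006 for the one used. It was also weaker for another probe set of Hspa5 (32 groups, r = 0.423). The weakest was Pdia4, whose other probe set had the same sign in 22 groups (r = 0.022). Its mean signal was 46.4, against 1713 for the one used, so it measured little above the dimmest probe sets.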

How the data were processed

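Liver RNA of 242 mice was measured on Affymetrix Mouse430_2 arrays. The deposited values are signal intensity per probe set on a linear scale, and GCOS 1.0 is named per the submitters' processing notes; how probes were summarised beyond that is not given in the sources used here. The trimmed mean (2% off each end) was 500 on 240 arrays as deposited, and the other 2 (vanadium pentoxide replicate 4 and 1,5-naphthalenediamine replicate 2) were scaled to it.

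The deposited intensity was used as log2(signal + 17.3), the pseudocount being the median over arrays of each array's own 20th percentile. Of 45101 probe sets, 34945 name 1 gene symbol, 10092 name none or several and were left out, and 64 are controls; the brightest probe set of each of 18193 genes was kept. Each run was fitted with limma 3.58.1 (R 4.3.3), 1 mean per group, with a block for a run code in run A. A gene counts as changed with a fold of at least 1.5 and a p under 0.05 after Benjamini-Hochberg adjustment over all genes. Differences on the log2 scale understate changes of dim genes, and the number of arrays limits their precision. Where several control groups share a run and vehicle, the animal numbers in the labels chose the control group. The labels name separate mice but no shared cage or day.

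The members, companion lists and tests were chosen with earlier results of these data known. Named in the text are the 10 members, up to 4 changed genes of each companion list per comparison with the lowest adjusted p, and the 5 genes most like the members. Correlations used deviations from group means and 100000 permutations within groups. Figures and sequences were made with Python 3.11.15. The fit was tested on simulated data. Comparisons between control groups of run B, methylene chloride against ACO3 or ACO5 alone, and malathion without low RNA integrity were chosen after the values were seen.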

Additional observations from a re-analysis of the deposited data

Results flagged for a closer look

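Of 44 sets of mouse values printed for 1 gene in 1 group, 2 held a mouse far from the rest by Dixon's test, and chance alone gives about 1 in 20. Sdf2l1 in replicate 2 of methylene chloride at 500 ppm stood at 11.28, with the other 3 mice at 10.43 to 10.53, and without it the difference from ACO4 no longer passed limma's test (adjusted p = 0.173). Sdf2l1 in ACO4 replicate 4 stood at 10.06, with the other 4 controls at 9.16 to 9.34.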

How the results depend on the processing

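The number of members changed over the 46 groups was 8. It was 3 with the signal as deposited, 2 with the 2 groups compared fitted alone, 15 with dim genes left out (4 rose and 11 fell, all 10 members kept) and 16 with control groups of a run and vehicle pooled (3 rose and 13 fell). It stayed within 1.5 times of 8 under quantile scaling (11), a pseudocount 4 times lower (9) or higher (10), the mean of all probe sets (9), no run code block (8) and a covariate for RNA quality, the ratio of 3′ to 5′ Gapdh signal (8), and lay between 6 and 11 when 1 array was left out in turn (96 arrays in 24 groups; the others were not run). The number of dose trends was 2, with 1 for the signal as deposited, 1 for the mean of all probe sets, 4 over dosed groups alone, and 1 to 3 without 1 array. Counts of 0 between control groups of run D and between related compounds stayed 0. Sdf2l1 at 3000 ppm of methylene chloride turned to −0.149 against ACO3. Creld2 at 300 mg/kg of 1,4-dichlorobenzene kept its call under all 9 alternatives (−2.18 to −1.91) and without any single array (−2.13 to −1.86). Hspa5 there lost it in the fit of 2 groups alone (adjusted p = 0.153), and Dnajb9 there also with the signal as deposited (0.0945) and with the Gapdh ratio (0.0595). Both 2,3-benzofuran calls were lost as deposited (Herpud1 0.509, Sdf2l1 0.851), where 1 array of that run is unscaled, and with 2 groups alone (0.104 and 0.122), where fewer arrays estimate the spread. Why the other counts moved was not tested. No paired analysis was possible because the labels number animals and give no replicate number that groups share. Values of Pdia4 beyond its bright probe set, and of other dim probe sets, are limited by signal over background.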
